A study of Arabidopsis thaliana with 12 samples.

Results

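The genes described here are 10 of the 33323 genes in the count and expression tables of an Arabidopsis thaliana RNA-seq study, chosen by gene identifier. They encode the enzymes that open the indole glucosinolate pathway and those that decorate its indole ring: CYP79B2, CYP79B3 and CYP83B1 of the core, CYP81F1, CYP81F2, CYP81F3 and CYP81F4 of ring hydroxylation, and IGMT1, IGMT2 and IGMT5 of ring methylation. All 10 passed the filter on low counts. The study compared 4 genotypes with 3 libraries each, namely jazDcdk8-1, jazD, cdk8-1 and the wild type Col-0. The jazD line combines mutations in most of the JAZ genes, which encode repressors of the transcription factors that carry out jasmonate responses. The cdk8-1 line is mutated in CDK8, a kinase of the Mediator complex that connects transcription factors with RNA polymerase II, and jazDcdk8-1 carries both sets of mutations. Each library was made from whole rosettes without roots, from a separate pool of about 20 plants grown for 18 days on peat and 7 more on soil, with mutants and wild type side by side in a tray. The mutations are present in every cell, the plants were not treated with jasmonate or attacked, and no single plant can be followed in a pool.

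Glucosinolates are sulfur-rich defense compounds of cabbage relatives, kept apart from the enzymes that turn them into toxic products when tissue is damaged. The indole type starts from tryptophan. CYP79B2 and CYP79B3 convert tryptophan to indole-3-acetaldoxime, a branch point that also leads to the antimicrobial camalexin and to auxin, and CYP83B1 takes the aldoxime into the glucosinolate core. On the finished core, CYP81F1, CYP81F2 and CYP81F3 hydroxylate the 4-position of the ring and CYP81F4 hydroxylates the 1-position. The methyltransferases IGMT1 and IGMT2 methylate the 4-hydroxy product, and IGMT5 methylates the 1-hydroxy product, which gives 1-methoxy-indol-3-ylmethyl glucosinolate. Jasmonate is a known inducer of the pathway, through MYC transcription factors that act with MYB34, MYB51 and MYB122.

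The libraries held 17583467 to 21030374 expected counts, and 19059 genes were tested. Log2 CPM (counts scaled to library size, with TMM factors) correlated at 0.99 to 0.9925 between libraries of a genotype and at 0.9289 to 0.9811 between genotypes, so no library stood apart from its own genotype. CDK8 averaged 3.11 CPM in jazDcdk8-1, 20.4 in jazD, 2.56 in cdk8-1 and 18.8 in Col-0, which follows the labels. All 4 leaf genes checked (RBCS1A, LHCB1.3, RCA and CA1) were abundant, while the 4 root genes summed to at most 0.74 TPM (transcripts scaled to gene length and to library size) and the 2 seed genes to at most 0.22 TPM in any library. The leaf sum was 61544 to 63950 TPM in jazDcdk8-1, 55248 to 59357 in jazD, 66221 to 69219 in cdk8-1 and 64884 to 65830 in Col-0, so it was lowest in jazD. RBCS1A, RCA and CA1 each had their lowest mean in jazD. LHCB1.3 did not, with means of 28649 TPM in jazDcdk8-1, 30358 in jazD, 27490 in cdk8-1 and 30938 in Col-0. The sum of 4 genes of epidermis, guard cells and phloem was 183 to 192 TPM in jazDcdk8-1, 184 to 199 in jazD, 170 to 185 in cdk8-1 and 211 to 215 in Col-0. Most of that sum is the phloem gene SUC2, which averaged 98.5 TPM in jazDcdk8-1, 127 in jazD, 102 in cdk8-1 and 147 in Col-0. FAMA, a guard cell gene, was instead highest in jazDcdk8-1, with means of 29.3 TPM in jazDcdk8-1, 20.5 in jazD, 20.02 in cdk8-1 and 16.7 in Col-0. ATML1 of the epidermis averaged 41.6, 31.4, 38.7 and 36.2 TPM in that order of genotypes, and MYB60 of guard cells 17.1, 12.4, 18.96 and 13.6 TPM. The part of these shifts in the results was not tested. In whole rosettes, fewer cells of a type and less RNA per cell cannot be told apart.

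The 10 genes lie at 7 places in the genome (RefSeq TAIR10.1 coordinates). CYP81F3 (AT4G37400), CYP81F4 (AT4G37410) and CYP81F1 (AT4G37430) stand in one row of 14967 bp on chromosome 4, from 17583992 to 17598958, with the same orientation. IGMT1 (AT1G21100) and IGMT2 (AT1G21120) belong to a tandem row of 13975 bp with IGMT3 and IGMT4 on chromosome 1, from 7386762 to 7400736, while IGMT5 (AT1G76790) lies far off on the same chromosome at 28822186 to 28823727. CYP79B2 (AT4G39950) is at 18525042 to 18527602 and CYP83B1 (AT4G31500) at 15273410 to 15275404 of chromosome 4, CYP79B3 (AT2G22330) at 9488413 to 9491404 of chromosome 2 and CYP81F2 (AT5G57220) at 23187840 to 23189902 of chromosome 5. Each gene has 2 or 3 annotated exons. The coding sequences of CYP79B2 and CYP79B3 were 78.6% identical, those of CYP81F3 and CYP81F4 81.6%, and those of IGMT1 and IGMT4 93.05%. No stretch of 50 bases was shared within the CYP79B or CYP81F genes. In contrast, 12.1% of the 50-base stretches of IGMT1 and 35.4% of those of IGMT2 recurred in another gene of the tandem row. Their counts may therefore depend on how the counting divided shared reads. The deposited counts of IGMT1 were whole in every library, while those of IGMT2 were fractional in most, such as 94.62 in jazD replicate 1. IGMT5 shared no such stretch.

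The sequences before the genes are described next, with those of CYP79B2 and CYP79B3 set side by side. Both genes were higher in jazD. With CDK8 also mutated, CYP79B3 was lower than in jazD, while CYP79B2 was not called as lower. Whether the sequence they share bears on their levels was not tested. The 300 bases before the annotated start of 9 of the 10 genes were read from TAIR10.1 on the strand of the gene. CYP79B2 and CYP79B3 share a block of 40 bases that differs at a single position, A18T, counted from its 5′ end with the base of CYP79B2 first. The block lies 95 to 56 bases before the start of CYP79B2 (chr4:18524947-18524986, plus strand) and 169 to 130 bases before that of CYP79B3 (chr2:9488244-9488283, plus strand). Capitals mark the letters CACCAAC, a string chosen after the block had been seen.
CYP79B2: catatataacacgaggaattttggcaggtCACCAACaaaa
CYP79B3: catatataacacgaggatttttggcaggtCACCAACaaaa
CACCAAC was absent from the other 7 windows and occurred, on either strand, in 3.1% of the 27443 windows of the same length before the annotated protein-coding genes.

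The next sequence is the one before CYP81F4, the gene with the largest increase in jazD among these 9. It was searched on both strands for CACGTG, the sequence to which MYC factors are best known to bind, and for its variants CACATG and CACGTT, and holds none of them. Capitals mark a match to TTGACN on the opposite strand, where N is any base. The match reads TTGACG.
CYP81F4 (chr4:17590472-17590771, plus strand): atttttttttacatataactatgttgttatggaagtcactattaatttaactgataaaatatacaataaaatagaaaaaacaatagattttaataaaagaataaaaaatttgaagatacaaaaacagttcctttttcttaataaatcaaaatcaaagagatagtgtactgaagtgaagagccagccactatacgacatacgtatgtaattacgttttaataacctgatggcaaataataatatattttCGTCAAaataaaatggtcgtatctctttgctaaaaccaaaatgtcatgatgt
CACGTG was found before none of the 9 genes and before 7.09% of all genes. CACGTT was found before 4 of the 9 (CYP83B1, CYP81F1, CYP81F3 and IGMT2), against 8.71% of all genes, and CACATG before CYP81F1, against 13.1%. Other strings searched on both strands were GCCGCC (before IGMT1, and 2.26% of all genes), TTGACN (before CYP81F2, CYP81F4, IGMT1 and IGMT2, and 50.3%) and TGACG (before CYP81F4, at a position overlapping its TTGACN match, and 21.3%). Of the 4 genes with a MYC-type string, CYP83B1, CYP81F1 and IGMT2 were higher in jazD and CYP81F3 was lower. The 5 genes without one (CYP79B2, CYP79B3, CYP81F2, CYP81F4 and IGMT1) were all higher. Whether any of these strings bears on the levels was not tested.

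In jazD, 9 of the 10 genes were higher than in Col-0 and 1, CYP81F3, was lower, at an adjusted p below 0.05 in edgeR's quasi-likelihood test with Benjamini-Hochberg adjustment over all genes. In this comparison 42.8% of all genes tested were called, 21.8% as higher and 20.9% as lower. The median log2 change of the 10 genes was 1.73, against 0.0007 over all genes. When CDK8 was also mutated, 7 of the 10 were lower in jazDcdk8-1 than in jazD, 1 (CYP81F1) was higher and 2 were not called, against 35.8% of all genes called (16.9% higher and 19% lower). The median there was -1.52, against 0.0001 over all genes. These 2 comparisons share the jazD libraries, so a high or low value in jazD enters both with opposite sign.

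**Figure D1:**
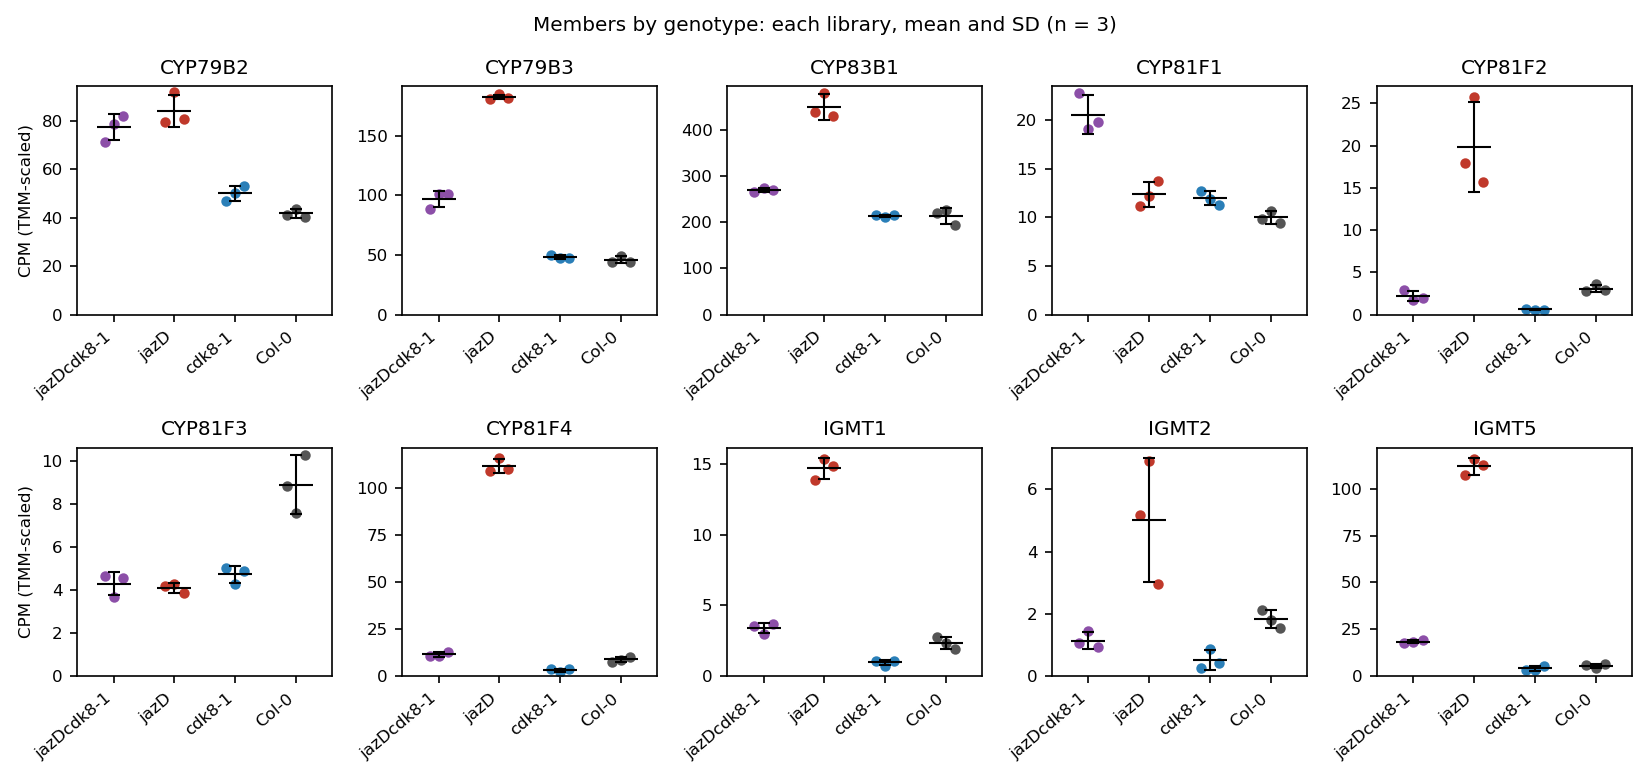
CPM on TMM-scaled libraries (y axis, from 0) of the 10 genes in jazDcdk8-1, jazD, cdk8-1 and Col-0 (x axis). Points are libraries, the long bar is their mean and the whiskers are the SD (n = 3); the jazD mean is the highest for 8 genes, the jazDcdk8-1 mean for CYP81F1 and the Col-0 mean for CYP81F3.

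Both genes of the first step were higher in jazD than in Col-0, CYP79B3 by 3.97-fold and CYP79B2 by 2.02-fold. CYP79B3 had 88.8, 100.9 and 100.9 CPM in the jazDcdk8-1 libraries and 181, 185 and 182 CPM in the jazD libraries. It had 49.8, 47.1 and 47.2 CPM in the cdk8-1 libraries, against 44.2, 49.4 and 44.3 CPM in the Col-0 libraries. The jazDcdk8-1 libraries thus lay below jazD and above cdk8-1 and Col-0, without overlap on either side. The log2 change was 1.99 ± 0.06 (approximate SE) in jazD against Col-0 (adjusted p = 1.93e-17) and -0.91 ± 0.05 in jazDcdk8-1 against jazD (adjusted p = 1.09e-11). CYP79B2, its partner in the same reaction, did not show that step down. It had 71.5, 79.0 and 81.9 CPM in the jazDcdk8-1 libraries and 79.7, 91.9 and 80.9 CPM in the jazD libraries, which overlap. Its level was 46.9, 50.1 and 53.3 CPM in the cdk8-1 libraries, against 41.3, 43.8 and 40.3 CPM in the Col-0 libraries. The change was 1.01 ± 0.07 on the log2 scale in jazD against Col-0 (adjusted p = 5.17e-11). Between jazDcdk8-1 and jazD it was -0.12 ± 0.06 (adjusted p = 0.148, 95% interval -0.26 to 0.02). On log2(TPM + 1) this last value was 0.02 (adjusted p = 0.832), with the median of all genes moved to 0.13 on that scale. CYP79B3 made up 57.1% ± 0.47 of the summed CYP79B TPM in jazDcdk8-1, 69.8% ± 1.44 in jazD, 50.5% ± 2.34 in cdk8-1 and 53.9% ± 0.63 in Col-0 (SD, n = 3).

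CYP83B1, the entry to the core, was the most abundant of the 10 genes in every genotype and had the same order of genotypes as CYP79B3. It had 265, 274 and 270.4 CPM in the jazDcdk8-1 libraries and 438, 481.5 and 430 CPM in the jazD libraries. It had 216, 212 and 216 CPM in the cdk8-1 libraries, against 219, 227 and 194 CPM in the Col-0 libraries. The jazD libraries were apart from all others and the jazDcdk8-1 libraries were above both genotypes with intact JAZ genes. CYP83B1 was 2.11-fold higher in jazD than in Col-0 (log2 1.08 ± 0.05, adjusted p = 4.65e-13), and 1.67-fold lower in jazDcdk8-1 than in jazD (log2 -0.74 ± 0.05, adjusted p = 4.08e-10). In cdk8-1 against Col-0 it was not called (0.01 ± 0.05, adjusted p = 0.932, 95% interval -0.11 to 0.13).

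Among the ring hydroxylases, CYP81F4, the gene of the 1-position, was 12.7-fold higher in jazD than in Col-0, and CYP81F2, the best known hydroxylase of the 4-position, was 6.50-fold higher. Neither kept that level once CDK8 was mutated as well. CYP81F4 had 10.9, 10.9 and 12.9 CPM in the jazDcdk8-1 libraries and 109, 116 and 111 CPM in the jazD libraries. It had 3.54, 2.22 and 3.602 CPM in the cdk8-1 libraries, against 7.73, 8.53 and 10.3 CPM in the Col-0 libraries. All 4 genotypes were free of overlap for CYP81F4. Its log2 change was 3.66 ± 0.09 in jazD against Col-0 (adjusted p = 2.55e-18) and -3.27 ± 0.09 in jazDcdk8-1 against jazD (adjusted p = 3.14e-17), which placed it 97 from the top and 67 from the bottom of the 19059 genes tested. CYP81F4 was also lower in cdk8-1 than in Col-0, by a log2 change of -1.49 ± 0.14 (adjusted p = 9.07e-08). It stayed higher in jazDcdk8-1 than in Col-0 by 0.39 ± 0.11 (adjusted p = 0.0108), a call that was lost without Col-0 replicate 1 (0.30) or jazDcdk8-1 replicate 3 (0.30), on log2(TPM + 0.1) (0.45, adjusted p = 0.0528) and on log2(TPM + 1) with no filter (0.40, adjusted p = 0.0632). AT4G37409, annotated on the opposite strand over 2140 bp of CYP81F4, had 0 counts over the jazDcdk8-1 libraries, 4 over jazD, and 0 over cdk8-1 and over Col-0.

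CYP81F2 had 2.89, 1.72 and 1.99 CPM in the jazDcdk8-1 libraries and 17.9, 25.8 and 15.7 CPM in the jazD libraries. It had 0.699, 0.569 and 0.576 CPM in the cdk8-1 libraries, against 2.75, 3.56 and 2.85 CPM in the Col-0 libraries. The jazD libraries were the highest and the cdk8-1 libraries the lowest, while jazDcdk8-1 and Col-0 overlapped. The log2 change of CYP81F2 was 2.70 ± 0.18 in jazD against Col-0 (adjusted p = 5.07e-11), -3.19 ± 0.19 in jazDcdk8-1 against jazD (adjusted p = 1.47e-11) and -2.30 ± 0.31 in cdk8-1 against Col-0 (adjusted p = 9.87e-06). At these low levels the log2(TPM + 1) scale gave smaller sizes, -2.40 in jazDcdk8-1 against jazD and -1.08 in cdk8-1 against Col-0, with both still called. CYP81F2 lies between 17 and 24 Mb of chromosome 5, an interval that held 50% of the 84 genes that fell 4-fold or more in jazD and 7.17% of the 307 that were at least 4-fold higher, against 6.71% of all genes tested. It also held 46.8% of the 62 genes with 4-fold or more in jazDcdk8-1 over jazD, and 8.65% of the 266 that were lower there by that much. The bounds of the interval were taken from earlier results of these data. Of the 37 other tested genes within 100 kb of CYP81F2, 7 were higher and 7 lower in jazD, with a median of -0.02 and 0 at 4-fold or more in either direction.

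CYP81F1 and CYP81F3, the other hydroxylases of the 4-position, had other profiles. CYP81F1 was highest in jazDcdk8-1, with 22.9, 19.1 and 19.8 CPM, and had 11.2, 12.2 and 13.7 CPM in jazD. It had 12.7, 11.9 and 11.2 CPM in the cdk8-1 libraries, against 9.86, 10.7 and 9.45 CPM in the Col-0 libraries. The jazDcdk8-1 libraries were thus apart from the other 9, which lay close together. The gene rose 1.66-fold in jazDcdk8-1 against jazD (log2 0.73 ± 0.09, adjusted p = 1.03e-06) and 2.05-fold against Col-0 (log2 1.04 ± 0.09, adjusted p = 1.11e-08). Its increase in jazD alone was 0.31 ± 0.10 (adjusted p = 0.0147) and was not called without Col-0 replicate 3 (0.27), without jazD replicate 3 (0.23) or on log2(TPM + 1) (0.20). In cdk8-1 against Col-0 CYP81F1 stood at 0.26 ± 0.10 (adjusted p = 0.0539), just outside the threshold, and was called there under total-count scaling (0.33, adjusted p = 0.0144), as well as without Col-0 replicate 2, cdk8-1 replicate 3, jazD replicate 1, jazD replicate 3 or jazDcdk8-1 replicate 1. An antisense non-coding RNA, AT4G37432, overlaps CYP81F1 over 1820 bp and had 421 counts over the jazDcdk8-1 libraries, 442 over jazD, 396 over cdk8-1 and 355 over Col-0. Whether counting used the strand is not given in the sources used here, so reads of the pair may not be fully separated. The deposited counts of CYP81F1 were fractional in every library, such as 189.91 in Col-0 replicate 1, while those of CYP81F2, CYP81F3 and CYP81F4 were whole. With which gene its reads were divided was not tested.

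CYP81F3 was the member with its highest level in the wild type. It had 4.67, 3.68 and 4.54 CPM in the jazDcdk8-1 libraries and 4.19, 4.27 and 3.85 CPM in the jazD libraries. It had 5.04, 4.29 and 4.90 CPM in the cdk8-1 libraries, against 8.82, 7.58 and 10.3 CPM in the Col-0 libraries. The 3 mutant genotypes lay in one narrow range below Col-0. CYP81F3 was lower than in Col-0 by a log2 change of -1.05 ± 0.13 in jazDcdk8-1 (adjusted p = 1.91e-06), -1.11 ± 0.13 in jazD (adjusted p = 6.66e-07) and -0.91 ± 0.13 in cdk8-1 (adjusted p = 1.6e-05). These 3 comparisons share the Col-0 libraries. Between jazDcdk8-1 and jazD the difference was 0.06 ± 0.15 (adjusted p = 0.788, 95% interval -0.28 to 0.40). CYP81F3 and CYP81F4, neighbours with 81.6% identical coding sequence, thus had opposite directions in jazD.

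**Figure D2:**
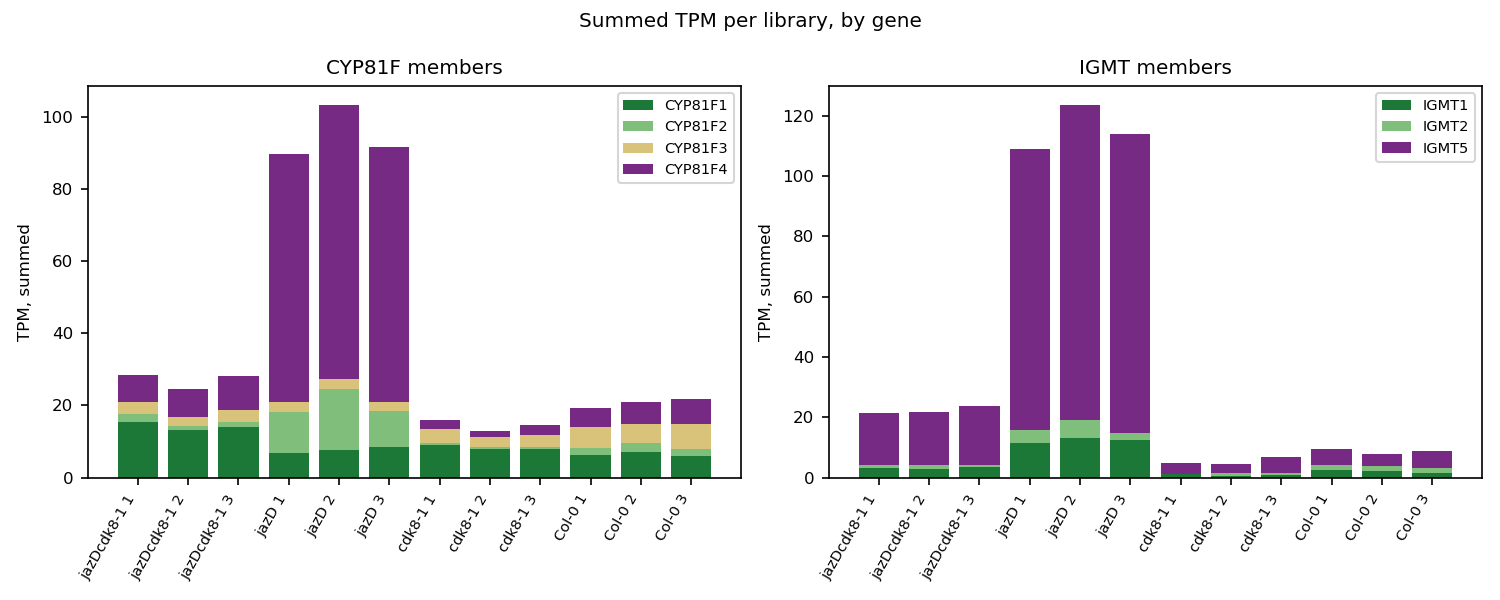
TPM per library (y axis), stacked by gene, for the CYP81F genes (left) and the IGMT genes (right) in the 12 libraries (x axis, genotype and replicate). In jazD the CYP81F bars reach 89.7 to 103 TPM and are mostly CYP81F4; the IGMT bars reach 109 to 124 TPM and are mostly IGMT5.

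These shifts changed the make-up of the CYP81F transcripts. Their summed level was 27.01 ± 2.14 TPM in jazDcdk8-1, 94.9 ± 7.38 TPM in jazD, 14.5 ± 1.53 TPM in cdk8-1 and 20.7 ± 1.25 TPM in Col-0 (SD, n = 3). CYP81F4 held 30.4% ± 3.32 of that sum in jazDcdk8-1, 75.8% ± 1.99 in jazD, 15.4% ± 3.17 in cdk8-1 and 28.8% ± 2.38 in Col-0. CYP81F1 took 52.6% ± 2.48 in jazDcdk8-1, 8.16% ± 0.99 in jazD, 57.9% ± 3.80 in cdk8-1 and 31.9% ± 3.35 in Col-0. The gene of the 1-position therefore made up most of the family's transcript in jazD, and CYP81F1 most of it in both genotypes with cdk8-1. The order of the CYP81F genes by TPM was CYP81F1, CYP81F4, CYP81F3, CYP81F2 in jazDcdk8-1 and CYP81F4, CYP81F2, CYP81F1, CYP81F3 in jazD. It was CYP81F1, CYP81F3, CYP81F4, CYP81F2 in cdk8-1 and in Col-0, and in Col-0 the first 3 (6.57, 6.04 and 5.97 TPM) overlapped between libraries.

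Of the methyltransferases, IGMT5 had the largest increase of all 10 genes. It was 20.6-fold higher in jazD than in Col-0 and 6.09-fold lower in jazDcdk8-1 than in jazD. It had 17.8, 18.0 and 19.2 CPM in the jazDcdk8-1 libraries and 107, 116 and 112.5 CPM in the jazD libraries. It had 3.34, 3.36 and 5.57 CPM in the cdk8-1 libraries, against 5.81, 4.17 and 6.35 CPM in the Col-0 libraries. The genotypes with mutated JAZ genes stood apart from each other and from the rest, while cdk8-1 and Col-0 overlapped. The log2 change of IGMT5 was 4.36 ± 0.11 in jazD against Col-0 (adjusted p = 3.35e-18), rank 62 of all genes tested, and -2.61 ± 0.09 in jazDcdk8-1 against jazD (adjusted p = 3.26e-15). In jazDcdk8-1 it was still 3.38-fold above Col-0 (log2 1.75 ± 0.13, adjusted p = 8.16e-10). The change in cdk8-1 against Col-0 was -0.40 ± 0.17 (adjusted p = 0.086), and it was called as lower without Col-0 replicate 2 or cdk8-1 replicate 3 and with no filter on low counts. IGMT5 overlaps AT1G76780, on the opposite strand, over 71 bp.

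IGMT1 and IGMT2, the methyltransferases of the 4-hydroxy product, were also higher in jazD than in Col-0 and lower in jazDcdk8-1 than in jazD. IGMT1 had 3.50, 2.97 and 3.66 CPM in the jazDcdk8-1 libraries and 13.9, 15.3 and 14.9 CPM in the jazD libraries. It had 1.10, 0.724 and 1.06 CPM in the cdk8-1 libraries, against 2.75, 2.31 and 1.90 CPM in the Col-0 libraries. All 4 genotypes were free of overlap. The log2 change of IGMT1 was 2.66 ± 0.14 in jazD against Col-0 (adjusted p = 7.57e-13), -2.12 ± 0.13 in jazDcdk8-1 against jazD (adjusted p = 2.22e-11) and -1.26 ± 0.21 in cdk8-1 against Col-0 (adjusted p = 9.76e-05). IGMT2 had 1.06, 1.44 and 0.926 CPM in the jazDcdk8-1 libraries and 5.17, 6.93 and 2.96 CPM in the jazD libraries, a spread of more than 2-fold within the genotype. It had 0.249, 0.879 and 0.432 CPM in the cdk8-1 libraries, against 2.13, 1.81 and 1.55 CPM in the Col-0 libraries. The cdk8-1 values rest on 5 to 17 counts per library. IGMT2 changed by 1.47 ± 0.27 in jazD against Col-0 (adjusted p = 0.00015), by -2.15 ± 0.29 in jazDcdk8-1 against jazD (adjusted p = 5.65e-06) and by -1.81 ± 0.40 in cdk8-1 against Col-0 (adjusted p = 0.00164) on the log2 scale. Log2(TPM + 1) gave smaller sizes for IGMT2, -1.30 in jazDcdk8-1 against jazD and -0.83 in cdk8-1 against Col-0, and for IGMT1 in cdk8-1 against Col-0 (-0.68), all still called.

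Their tandem neighbour IGMT4, not one of the 10, was the abundant gene of the row. It averaged 273 ± 12.8 TPM in jazDcdk8-1, 509.9 ± 22.2 in jazD, 120 ± 3.48 in cdk8-1 and 146 ± 19.0 in Col-0 (SD, n = 3). It exceeded IGMT5 in every genotype, whose mean was 18.0 TPM in jazDcdk8-1, 99.0 in jazD, 4.06 in cdk8-1 and 5.06 in Col-0. The counts of IGMT1 were 0.56% to 2.5% of those of IGMT4 in the same library and those of IGMT2 0.196% to 1.35%. With the shared sequence given above their levels are uncertain. Summed by genotype, the deposited counts were fractional for IGMT2 and IGMT3 in every genotype, with 285.74 and 188.26 in jazD. Those of IGMT1 and IGMT4 were whole, with 818 and 33542 in jazD. As a share of the IGMT4 count, IGMT1 ran from 0.962% to 1.31% in jazDcdk8-1, from 2.35% to 2.5% in jazD, from 0.56% to 0.864% in cdk8-1 and from 1.26% to 1.74% in Col-0. The part of shared reads in these values was not tested. IGMT4 rose by 1.88 ± 0.06 in jazD against Col-0 (adjusted p = 1.67e-16) and fell by 1.05 on the log2 scale in jazDcdk8-1 against jazD (adjusted p = 5.26e-12). IGMT3 stood at 1.64 ± 0.29 (adjusted p = 8.41e-05) and -1.03 ± 0.27 (adjusted p = 0.00446), the second not called without jazD replicate 2 (-0.62, adjusted p = 0.0726). IGMT5 held 81.1% ± 0.63 of the summed TPM of the 3 methyltransferases among the 10 genes in jazDcdk8-1, 85.7% ± 1.18 in jazD, 73.6% ± 5.71 in cdk8-1 and 57.7% ± 7.35 in Col-0. That sum leaves out IGMT3 and IGMT4.

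**Figure D3:**
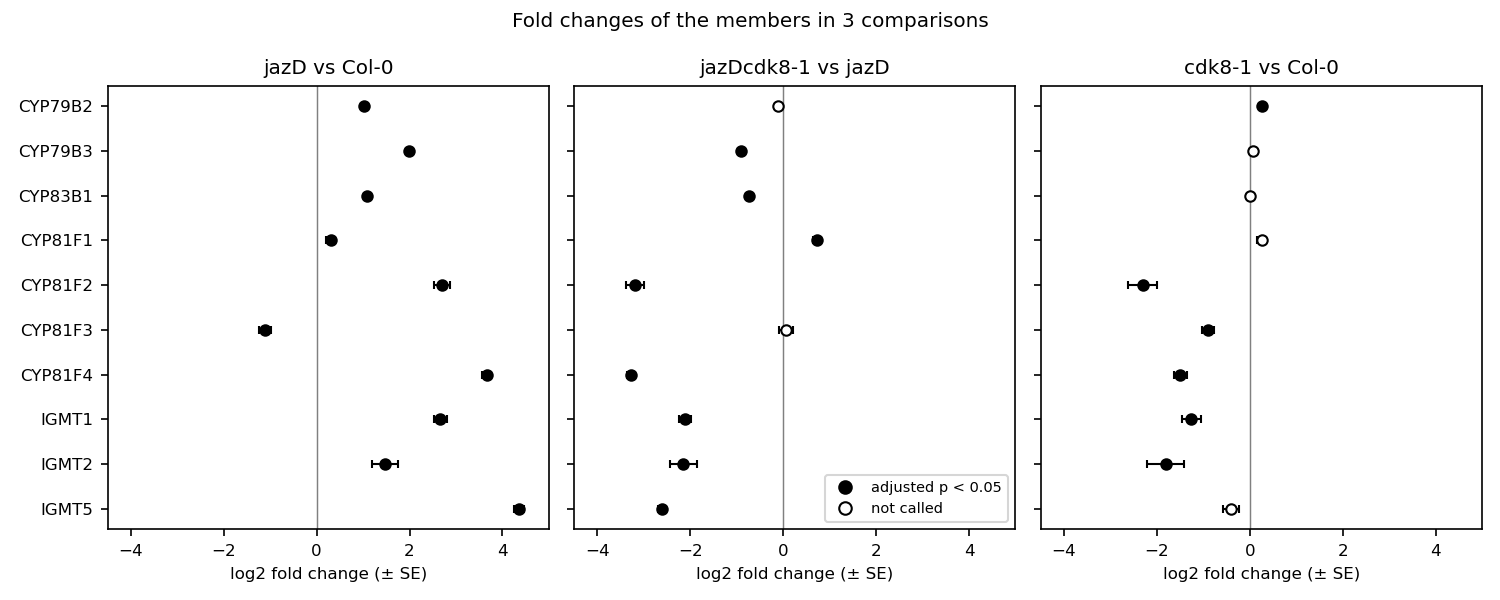
Log2 fold changes (x axis) of the 10 genes (rows) with their approximate SE in jazD against Col-0, jazDcdk8-1 against jazD and cdk8-1 against Col-0. Filled points passed an adjusted p of 0.05; 9 genes lie right of 0 on the left panel, and 7 filled points lie left of 0 on the middle panel.

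With intact JAZ genes, mutation of CDK8 went with lower levels of 5 of the 7 ring genes, and none of CYP79B2, CYP79B3 and CYP83B1 was called as lower. In cdk8-1 against Col-0, these 5 of the 10 genes were lower (CYP81F2, CYP81F3, CYP81F4, IGMT1 and IGMT2), 1 was higher and 4 were not called, with 25.5% of all genes called (11.7% higher and 13.8% lower). The higher one was CYP79B2, at 0.26 ± 0.07 (adjusted p = 0.00643), while CYP79B3 stood at 0.06 ± 0.06 (adjusted p = 0.468, 95% interval -0.07 to 0.20). The median of the 10 was -0.65, against 0.0011 over all genes.

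The JAZ mutations were also compared within the cdk8-1 background. In jazDcdk8-1 against cdk8-1, 8 of the 10 genes were higher and 0 lower, with 24% of all genes called (12.7% higher and 11.2% lower). IGMT5 was at 2.16 ± 0.14, CYP81F4 at 1.88 ± 0.14, CYP81F2 at 1.81 ± 0.33, IGMT1 at 1.80 ± 0.19 and CYP79B3 at 1.01 ± 0.06. On log2(TPM + 1) CYP81F2 was at 0.82 and IGMT1 at 1.12, both still called. IGMT2, at 1.14 ± 0.43 (adjusted p = 0.0602, and called without cdk8-1 replicate 2, jazD replicate 2 or jazD replicate 3, with no filter, in DESeq2, on log2(TPM + 0.1), with the replicate block and with those genotypes only), and CYP81F3, at -0.15 ± 0.14 (adjusted p = 0.507), were not called. Against Col-0, jazDcdk8-1 had 7 of the 10 genes higher and 1 lower, with 32.4% of all genes called (16.3% higher and 16.1% lower). The 7 were 5 without jazDcdk8-1 replicate 3. CYP79B3 (1.08 ± 0.06), CYP81F1 (1.04 ± 0.09) and CYP79B2 (0.89 ± 0.07) were the next after IGMT5 there. IGMT1, at 0.54 ± 0.16 (adjusted p = 0.0137), was not called without Col-0 replicate 3 or jazDcdk8-1 replicate 3. CYP81F2 was at -0.49 ± 0.24 (adjusted p = 0.128, and called as lower without jazD replicate 2 or jazDcdk8-1 replicate 1) and IGMT2 at -0.68 ± 0.34 (adjusted p = 0.136, and called as lower with those genotypes only).

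The effect of cdk8-1 differed between the JAZ backgrounds for 8 of the 10 genes, by a test of the difference itself (the change in jazDcdk8-1 against jazD minus that in cdk8-1 against Col-0), with 16.5% of all genes called (8.16% higher and 8.39% lower). Of the 8 differences, 6 were negative. IGMT5 had the largest, at -2.20 ± 0.20 on the log2 scale (adjusted p = 7.54e-08), followed by CYP81F4 at -1.78 ± 0.18 (adjusted p = 5.35e-07). CYP79B3 was at -0.98 ± 0.08 (adjusted p = 1.48e-08) and CYP83B1 at -0.75 ± 0.07 (adjusted p = 4.03e-07), genes without a call in cdk8-1 against Col-0. CYP79B2 (-0.38 ± 0.09, adjusted p = 0.00619), IGMT1 (-0.86 ± 0.26, adjusted p = 0.0255) and CYP81F1 (0.47 ± 0.13, adjusted p = 0.0157) were called too, but not under every alternative. IGMT1 lost its call without Col-0 replicate 3, cdk8-1 replicate 1, cdk8-1 replicate 3 or jazDcdk8-1 replicate 2, and CYP81F1 without jazD replicate 1 or jazDcdk8-1 replicate 1. CYP81F3 was at 0.97 ± 0.20 (adjusted p = 0.00148), its values being -0.91 in cdk8-1 against Col-0 and 0.06 in jazDcdk8-1 against jazD. CYP81F2 and IGMT2 were not called for this difference (-0.89 ± 0.43, adjusted p = 0.173, 95% interval -1.87 to 0.09, and -0.34 ± 0.54, adjusted p = 0.742, 95% interval -1.58 to 0.91). On log2(TPM + 1), however, CYP81F2 was called, at -1.32 (adjusted p = 0.0017, and 0.00691 with no filter), so whether its effects differ depends on the scale.

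**Figure D4:**
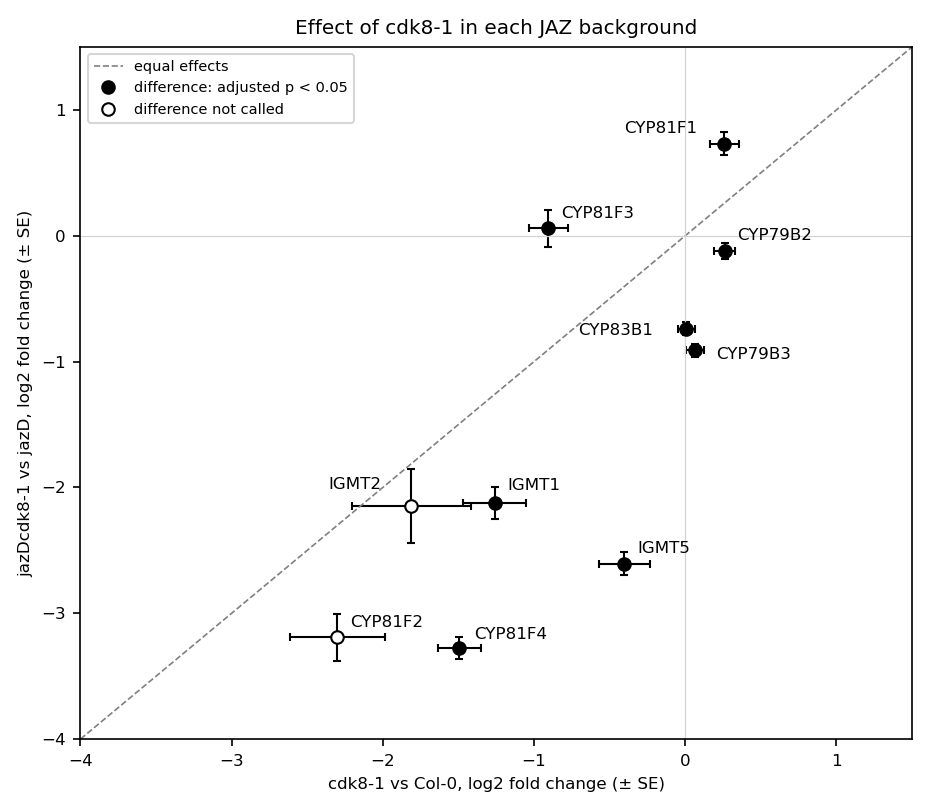
Log2 fold change of the 10 genes in jazDcdk8-1 against jazD (y axis) set against that in cdk8-1 against Col-0 (x axis), each with its approximate SE; the dashed line marks equal effects. Filled points are the 8 genes whose 2 effects differed at an adjusted p below 0.05, with IGMT5 and CYP81F4 well below the line and CYP81F1 and CYP81F3 above it.

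Ordered by TPM, CYP83B1, CYP79B3 and CYP79B2 were above all 7 ring genes in Col-0, while in jazD IGMT5 and CYP81F4 stood among them. CYP83B1 led in every genotype, at 188 TPM in jazDcdk8-1, 284 in jazD, 152 in cdk8-1 and 142 in Col-0. In jazDcdk8-1, cdk8-1 and Col-0 it was followed by CYP79B3 and CYP79B2, whose libraries overlapped in cdk8-1. In Col-0 all 7 ring genes lay at 6.57 TPM or less, below CYP79B2 at 23.99 TPM. In jazD, IGMT5 (99.0 TPM) overlapped CYP79B3 (105 TPM), and CYP81F4 (71.8 TPM) stood above CYP79B2 (45.8 TPM). The other 5 ring genes stayed below CYP79B2 in jazD, with CYP81F2 at 12.7 TPM, IGMT1 at 12.2, CYP81F1 at 7.72, IGMT2 at 4.28 and CYP81F3 at 2.65.

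Genes with the most similar profile were sought for 3 of the 10 by Pearson's correlation of log2 CPM over the 12 libraries, among 13797 genes with at least 5 CPM on average. The 12 points share 4 genotypes, so the coefficients mostly describe genotype means. For CYP83B1 they were TSB1 (0.994), which encodes a tryptophan synthase subunit, ERD6 (0.993), of a sugar transporter family, and LRR XI-23 (0.992), a receptor-like kinase also called RLK7. For CYP81F4 they were GDH1 (0.994), UGT72E1 (0.993) and ERF4 (0.992). For IGMT5 they were PGL5 (0.996), the lectin gene JR1 (0.995) and DHAR1 (0.992).

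The rest of the pathway was followed in 9 lists with 66 genes, of which the tryptophan supply is given first. Over all genes tested, 21.8% were called higher and 20.9% lower in jazD against Col-0. In jazDcdk8-1 against jazD these shares were 16.9% and 19%. No list was tested against these shares, and the counts of the short lists can lie near them. Of 11 genes that make tryptophan, 8 were higher and 0 lower in jazD against Col-0 (median 1.15), and 0 were higher and 8 lower in jazDcdk8-1 against jazD (median -0.81). TSB1 rose by 1.74 ± 0.05 in jazD (adjusted p = 1.14e-17) and was lower in jazDcdk8-1 than in jazD by a log2 change of -1.25 ± 0.05 (adjusted p = 6.87e-15). TRP3, the alpha subunit of tryptophan synthase, was at 1.63 ± 0.06 and -1.05 ± 0.06. PAI2 was at 2.29 ± 0.08 and -0.57 ± 0.07, but it shares near-identical copies and its counts are uncertain.

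The steps after the aldoxime were less uniform in jazD. Of 7 such genes, 5 were higher and 2 lower in jazD against Col-0, and all 7 were lower in jazDcdk8-1 than in jazD, of which SUR1 (-0.12) was not called without jazD replicate 1, jazDcdk8-1 replicate 2 or jazDcdk8-1 replicate 3. The 2 lower in jazD were SUR1 at -0.34 ± 0.04 and UGT74B1 at -0.14, and UGT74B1 was not called without Col-0 replicate 1, Col-0 replicate 3, jazD replicate 1 or jazD replicate 3. GSTF10, a glutathione transferase, had 235 ± 4.30 CPM in jazDcdk8-1, 881 ± 24.1 in jazD, 120 ± 0.57 in cdk8-1 and 167 ± 4.62 in Col-0. Its log2 change was 2.40 ± 0.04 in jazD against Col-0 (adjusted p = 5.27e-21) and -1.91 ± 0.04 in jazDcdk8-1 against jazD (adjusted p = 1.09e-18), larger than for CYP83B1 in both. GSTU13 was at 1.29 ± 0.05 and -1.09 ± 0.05, and GSTF9 at 1.01 ± 0.04 and -0.33 ± 0.04. In cdk8-1 against Col-0, 3 of the 7 were higher and 3 lower, with GSTF10 at -0.47 ± 0.04, UGT74B1 at -0.45 ± 0.05 and GSTU13 at -0.33 ± 0.05 as the lower ones. SUR1 and UGT74B1 were named after their values had been seen. The list of sulfate donor (PAPS) supply moved little, with 3 of 5 genes higher and 0 lower in jazD and a median of 0.17. Its 3 named genes were APS3 at 0.57 ± 0.06, APS1 at 0.21 ± 0.04 and APK1 at 0.04 ± 0.04 (adjusted p = 0.538), and in jazDcdk8-1 against jazD they were at -0.70 ± 0.06, -0.50 ± 0.04 and 0.20 ± 0.04, within 2 genes higher and 2 lower of 5. The other higher one, APK2 (0.17), was not called without jazD replicate 2, jazD replicate 3 or jazDcdk8-1 replicate 2.

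Among 5 tested regulators of 6, 4 were higher and 1 lower in jazD, and 1 was higher and 2 lower in jazDcdk8-1 against jazD. MYB51, an activator of indole glucosinolate genes, had 6.23, 6.08 and 6.86 CPM in the jazDcdk8-1 libraries and 26.1, 35.03 and 24.8 CPM in the jazD libraries. It had 5.24, 5.17 and 4.37 CPM in the cdk8-1 libraries, against 9.29, 9.33 and 7.85 CPM in the Col-0 libraries. MYB51 was highest in jazD, and its libraries were lower in both genotypes with cdk8-1 than in Col-0. Its log2 change was 1.70 ± 0.11 in jazD against Col-0 (adjusted p = 8.7e-11), -2.17 ± 0.12 in jazDcdk8-1 against jazD (adjusted p = 6.32e-12) and -0.84 ± 0.14 in cdk8-1 against Col-0 (adjusted p = 0.000149). MYC2, the main transcription factor of the jasmonate response, was at 1.71 ± 0.07 in jazD (adjusted p = 1.12e-14) and at -0.30 ± 0.06 in jazDcdk8-1 against jazD (adjusted p = 0.000652). MYC3 was at 0.52 ± 0.05 and 0.10 ± 0.05, the second value not called (adjusted p = 0.149). MYB34 was at 0.41 ± 0.06 and -0.13 ± 0.06, the second value again not called (adjusted p = 0.112). MYC4 was the lower one in jazD and the higher one in jazDcdk8-1 against jazD. It averaged 30.1 CPM in jazDcdk8-1, 21.7 in jazD, 27.6 in cdk8-1 and 25.9 in Col-0. MYB34 and MYC4 were named after their values had been seen.

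Genes that break down or move the finished compounds were counted next. Of 10 breakdown genes, 8 were higher and 1 lower in jazD, and 2 were higher and 6 lower in jazDcdk8-1 against jazD. The β-glucosidase genes BGLU18 and PYK10 rose by 4.10 ± 0.06 and 3.20 ± 0.08 in jazD and fell by 0.59 and 0.52 on the log2 scale in jazDcdk8-1 against jazD. NSP1, a nitrile specifier gene, was at 2.93 ± 0.05 and -0.42 ± 0.05. Of 4 transport genes, 2 were higher and 1 lower in jazD, with PEN3 at 1.24 ± 0.06, GTR1 at 0.35 ± 0.06 and AT1G18880 at -0.51 ± 0.15 (not called without jazD replicate 2, -0.38), and 1 was higher and 1 lower in jazDcdk8-1 against jazD, GTR1 at 0.46 ± 0.05 and PEN3 at -0.41 ± 0.06.

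The branch that competes for the aldoxime leads to camalexin. Of 6 tested genes of 7, 6 were higher in jazD and 5 were lower in jazDcdk8-1 than in jazD, with medians of 2.29 and -1.88. PAD3, the last enzyme of camalexin synthesis, had 1.34, 0.670 and 2.83 CPM in the jazDcdk8-1 libraries and 15.6, 37.2 and 15.9 CPM in the jazD libraries. It had 0.349, 0.672 and 0.817 CPM in the cdk8-1 libraries, against 3.74, 4.32 and 3.95 CPM in the Col-0 libraries. As for CYP81F2, the second jazD library was the highest. The change of PAD3 was 2.53 ± 0.30 (adjusted p = 4.69e-07) in jazD against Col-0 and -3.82 ± 0.34 (adjusted p = 1.58e-08) in jazDcdk8-1 against jazD, or -4.55 without jazDcdk8-1 replicate 3. CYP71A13, which acts on the aldoxime, had 0.723, 0.670 and 1.67 CPM in the jazDcdk8-1 libraries and 6.04, 19.3 and 8.05 CPM in the jazD libraries. Its changes were 1.61 ± 0.32 and -3.43 ± 0.39, and without jazD replicate 2, the highest library, 0.93 (adjusted p = 0.00313) and -2.76 (adjusted p = 1.04e-07). GSTF6 was at 2.95 ± 0.13 and -1.61 ± 0.12.

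**Figure D5:**
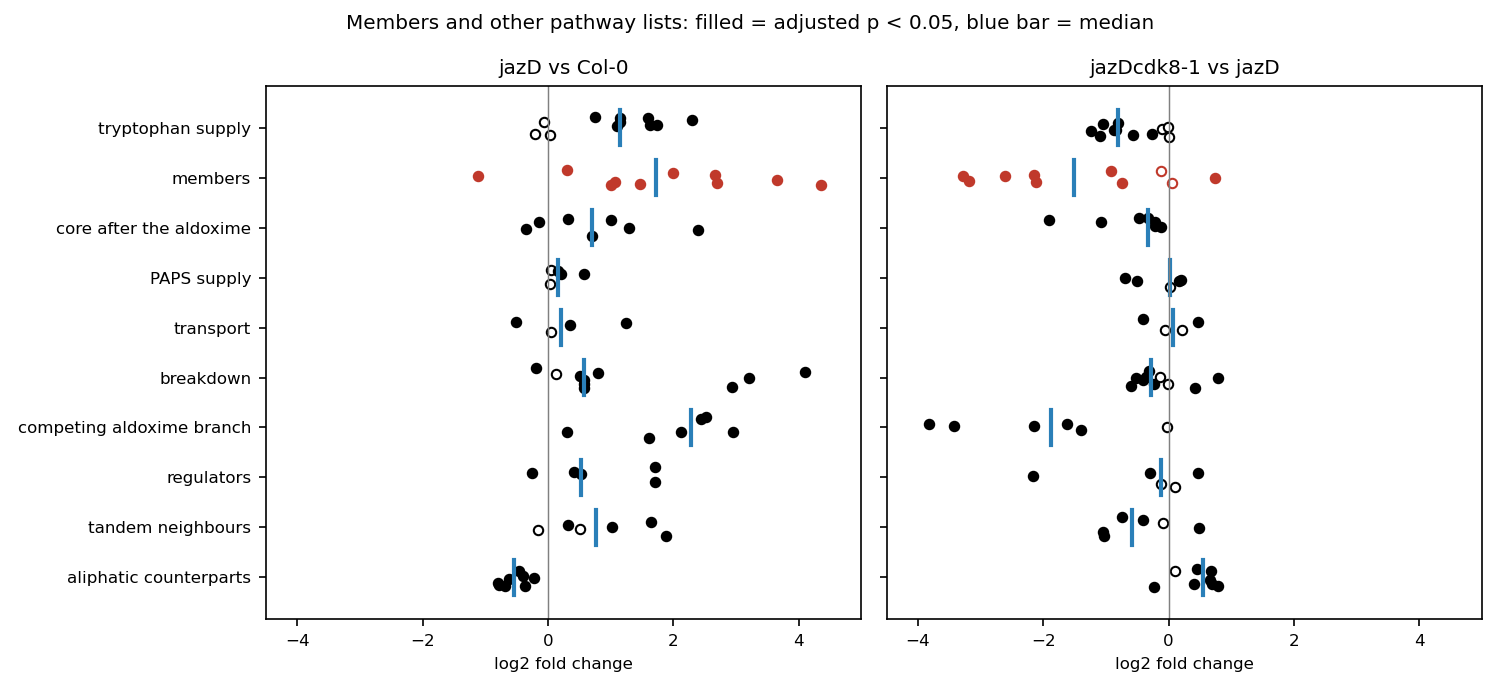
Log2 fold change (x axis) of the tested genes of each pathway list (rows, the 10 genes of interest in red) in jazD against Col-0 (left) and jazDcdk8-1 against jazD (right). Filled points passed an adjusted p of 0.05 and blue bars are medians, which for the 10 genes are 1.73 and -1.52; all 8 aliphatic counterparts lie left of 0 on the left panel.

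The corresponding enzymes of aliphatic glucosinolates, which start from methionine, were counted in the same way. All 8 were lower in jazD than in Col-0 (median -0.54), of which FMOGS-OX1 (-0.22) was not called without jazD replicate 2, and 6 were higher and 1 lower in jazDcdk8-1 than in jazD (median 0.55). The lower one was CYP83A1, the counterpart of CYP83B1, at -0.46 ± 0.05 in jazD against Col-0 and -0.23 ± 0.05 (adjusted p = 0.000461) in jazDcdk8-1 against jazD. FMOGS-OX1, CYP83A1 and CYP79F1 were named after their values had been seen. CYP79F2, a counterpart of the CYP79B genes, was at -0.80 ± 0.14 and 0.10 ± 0.15 (adjusted p = 0.628). The more abundant CYP79F1, also their counterpart, was among the 6 higher in jazDcdk8-1 than in jazD. It averaged 344 CPM in jazDcdk8-1, 215 in jazD, 294 in cdk8-1 and 347 in Col-0. AOP2 was at -0.77 ± 0.07 and 0.45 ± 0.08, and the sulfotransferase gene SOT18 at -0.37 ± 0.05 and 0.79 ± 0.05. In the tandem neighbours of the 10 genes, 4 of 6 tested genes of 8 were higher and 0 lower in jazD, among them CYP81D5 at 1.03 ± 0.13 as well as IGMT3 and IGMT4, and 1 was higher and 4 lower in jazDcdk8-1 against jazD, where CYP81D5 was at -0.41 ± 0.12 (not called without jazD replicate 2 or jazDcdk8-1 replicate 2).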

How the data were processed

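RNA-seq of whole rosettes was used from 12 libraries. The authors made the deposited expected counts and the deposited TPM with RSEM 1.2.25 on TAIR10, per the submitters' processing notes. The read aligner, strand setting and annotation release are not given in the sources used here. The count table holds 33323 genes, and 3.423% of its values were not whole (tolerance 0.001). After rounding to whole numbers, the counts went into edgeR 4.0.16 under R 4.3.3. Libraries were scaled by TMM, low genes removed by filterByExpr, and all 12 libraries fitted in 1 quasi-likelihood model of genotype. P-values were adjusted by Benjamini-Hochberg over 19059 genes, and genes called below 0.05. Approximate SE were derived from the log2 fold change and the square root of its F. The common dispersion was 0.002566. Replicates are separate pools of plants. The script was tested on simulated counts. Alternatives were RLE and total-count scaling, no filter, a minimum of 1 CPM in 3 libraries and the Wald test of DESeq2 1.42.0. Also run was limma 3.58.1 on log2(TPM + 1) with and without a minimum mean of 0.5 TPM, and on log2(TPM + 0.1) with that minimum. Further alternatives were the compared genotypes only, a replicate block, and each library left out in turn. Promoters and coordinates are from RefSeq TAIR10.1, where 32835 identifiers matched and 488 did not. Named genes are the 10 members and, per list, up to 3 called genes averaging 1 CPM or more, taken by size of change, with IGMT3 and IGMT4 always given. For the most similar genes, the 3 with the highest correlation were taken. The members and lists were chosen with earlier results of these data known. Depth limits the least abundant genes, and intervals cover the spread between libraries only. The sequence before 1 of the 10 genes is not reported here.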

Additional observations from a re-analysis of the deposited data

Results flagged for a closer look

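The difference between the effect of cdk8-1 in the jazD background and its effect in the Col-0 background passed an adjusted p of 0.05 (edgeR's quasi-likelihood test) for 8 of the 10 genes, against 16.5% of all genes tested. It was -0.38 on the log2 scale for CYP79B2, -0.98 for CYP79B3, -0.75 for CYP83B1, 0.47 for CYP81F1, 0.97 for CYP81F3, -1.78 for CYP81F4, -0.86 for IGMT1 and -2.20 for IGMT5. The calls of CYP79B3, CYP83B1, CYP81F3, CYP81F4 and IGMT5 held under all 21 alternatives. The call of CYP79B2 was lost on the TPM scales (highest adjusted p 0.136). That of CYP81F1 was lost without jazD replicate 1 or jazDcdk8-1 replicate 1. That of IGMT1 was lost without Col-0 replicate 3, cdk8-1 replicate 1, cdk8-1 replicate 3 or jazDcdk8-1 replicate 2 (highest adjusted p 0.0948). Groups of 3 libraries are too small for a test of outlying samples.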

How the results depend on the processing

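Of 1310 recomputed values of 60 results on single genes, 1257 kept their direction and side of the threshold, 20 lost the call, 27 gained one and 6 changed sign, none of these a called value. For CYP79B2 in jazDcdk8-1 against jazD the sign changed in limma on log2(TPM + 1) with and without the filter (0.02375 each) and on log2(TPM + 0.1) (0.02422). It changed for CYP81F3 in jazDcdk8-1 against jazD without jazDcdk8-1 replicate 1 (-0.008894, with others left out up to 0.1619), for CYP83B1 in cdk8-1 against Col-0 without Col-0 replicate 3 (-0.05127, up to 0.05375) and for IGMT2 in the difference of the cdk8-1 effects without cdk8-1 replicate 2 (0.245, down to -0.6637). The cause was not tested. Genes higher in cdk8-1 than in Col-0 numbered 2 in place of 1 under total-count scaling, with no filter, on the 3 TPM scales and with those genotypes only, CYP81F1 being the added one, and 1 to 2 with a library left out. Genes lower in jazDcdk8-1 than in Col-0 numbered 2 with those genotypes only and 1 to 2 with a library left out, and genes with a positive difference of the cdk8-1 effects 1 to 2. With the replicate block, 7934 genes were called in jazD against Col-0 (8153 without it) and 6640 in jazDcdk8-1 against jazD (6825), and IGMT2 gained its call in jazDcdk8-1 against cdk8-1 (9 genes higher in place of 8). The block changed no other call among the 10 genes. Numbers do not pair the libraries: deviations of same-numbered libraries correlated at -0.058 to 0.051 and of others at -0.066 to 0.066. With a library left out, the lone pair of its genotype was taken to vary like the others. Depth limits IGMT2 and CYP81F2 in cdk8-1.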
